A study of Mus musculus with 18 samples.

Results

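The sterol regulatory element-binding protein (SREBP) programme of sterol and fatty acid synthesis was followed in mouse CD8+ T cells through 32 genes, chosen by gene symbol from a named list and all of them measured in each of 3 deposited tables. The genes listed in all numbered 23757 (naive), 24117 (effector) and 24927 (memory). The 32 genes comprise 5 SREBP regulators, 21 genes of the sterol pathway and 6 genes of fatty acid synthesis, and the sterol and fatty acid genes are described apart. The study compared Hspa9 conditional knockout (cKO) with wild-type (WT) mice aged 8 weeks. Hspa9 encodes GRP75, the mitochondrial heat shock protein also called mortalin. Lymph nodes and spleen supplied the naive CD8+ T cells, which were sequenced without treatment, and effector and memory cells were differentiated from naive cells in culture. Poly(A) RNA was sequenced from 6 groups of 3 libraries each, 18 in all: naive cKO and naive WT, effector cKO and effector WT, and memory cKO and memory WT. The Cre driver, the deleted exon, the differentiation conditions and whether the 3 libraries of a group came from separate mice are not given in the sources used here, so the p-values measure only the spread between libraries, which may be technical.

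SREBPs are transcription factors that are made as precursors in the membrane of the endoplasmic reticulum. The escort protein SCAP carries them to the Golgi, where proteases release the active fragment, and INSIG proteins hold SCAP back when sterols are plentiful. SREBP2, encoded by Srebf2, is known mainly for cholesterol synthesis and uptake genes, and SREBP1, encoded by Srebf1, mainly for fatty acid genes. Activated CD8+ T cells are known to raise SREBP-dependent lipid synthesis as they build new membrane.

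Promoter windows are shown for the regulator and the 2 sterol genes with the largest called difference between genotypes, for Acaca, the fatty acid gene with the largest called difference among those with a window in the promoter table (Scd1 and Scd2 have none), and for Hmgcs1, which was added after its match to the sterol response element had been seen. The sequences are RefSeq windows of 250 bases before the annotated start on GRCm38.p6, an earlier build than the GRCm39 of the deposited tables, and were matched by symbol. They run 5′ to 3′ on the gene's strand. Capitals mark the sterol response element TCACNCCAC, the NF-Y box CCAAT and the GC box GGGCGG on either strand (reverse complements included), and no matches overlapped in these 5 windows. The windows lie at chr5:28071162-28071411 (plus strand) for Insig1, chr13:8885356-8885605 (plus strand) for Idi1, chr8:64733579-64733828 (minus strand) for Msmo1, chr13:119690101-119690350 (plus strand) for Hmgcs1 and chr11:84195188-84195437 (plus strand) for Acaca.
Insig1: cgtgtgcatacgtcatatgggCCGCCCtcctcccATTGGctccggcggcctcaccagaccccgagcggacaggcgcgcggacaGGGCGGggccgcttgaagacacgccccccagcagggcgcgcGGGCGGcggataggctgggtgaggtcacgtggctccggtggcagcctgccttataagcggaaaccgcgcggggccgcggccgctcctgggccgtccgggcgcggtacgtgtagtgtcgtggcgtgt
Idi1: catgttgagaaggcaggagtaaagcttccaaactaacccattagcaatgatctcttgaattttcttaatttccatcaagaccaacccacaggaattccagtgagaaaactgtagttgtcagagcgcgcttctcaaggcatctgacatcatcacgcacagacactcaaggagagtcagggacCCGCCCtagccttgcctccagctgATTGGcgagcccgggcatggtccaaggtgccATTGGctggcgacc
Msmo1: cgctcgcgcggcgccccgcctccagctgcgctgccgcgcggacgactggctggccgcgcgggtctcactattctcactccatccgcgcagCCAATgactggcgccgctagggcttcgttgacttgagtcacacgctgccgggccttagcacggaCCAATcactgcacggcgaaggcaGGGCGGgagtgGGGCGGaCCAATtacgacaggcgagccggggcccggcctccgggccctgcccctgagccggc
Hmgcs1: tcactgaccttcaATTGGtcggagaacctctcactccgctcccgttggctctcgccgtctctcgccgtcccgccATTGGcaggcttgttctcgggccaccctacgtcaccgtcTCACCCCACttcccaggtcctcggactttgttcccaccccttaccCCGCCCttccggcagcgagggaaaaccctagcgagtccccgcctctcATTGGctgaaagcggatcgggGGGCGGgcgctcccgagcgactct
Acaca: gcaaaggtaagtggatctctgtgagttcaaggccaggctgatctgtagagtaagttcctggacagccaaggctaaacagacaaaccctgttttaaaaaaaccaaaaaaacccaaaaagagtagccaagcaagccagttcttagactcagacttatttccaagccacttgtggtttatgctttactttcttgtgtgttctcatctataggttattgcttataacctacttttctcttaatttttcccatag

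Of the 32 genes, 26 matched the promoter table, with 34 windows in all because some have several starts; Fdps, Fdft1, Sqle, Stard4, Scd1 and Scd2 had no entry. The NF-Y box was found in 22 of the 34 windows, against 33.8% of 32851 windows over all genes. The GC box was found in 24 of the 34 windows, against 32.7% of all windows. The sterol response element was found in 1 of the 34 windows, that of Hmgcs1, against 1.05% of all windows. Insig1 had 1 NF-Y box and 3 GC boxes, Idi1 had 2 and 1, and Msmo1 had 3 and 2. Hmgcs1 had 3 NF-Y boxes and 2 GC boxes around its sterol response element, while the Acaca window held none of the 3 motifs. Acaca is known to be transcribed from several promoters and this table holds 1 start. The Acaca window ends in a pyrimidine-rich stretch and AG, as introns do, so it may lie inside the gene. No conclusion on the promoters of Acaca is drawn from it. The windows were not matched for base composition, and a match is a run of letters and not a measured binding site.

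Libraries held 14771251 to 18049774 reads assigned to genes. Hspa9 had 6149 to 6718 normalised reads in naive cKO-labelled libraries, against 3789 to 4095 in naive WT libraries. It had 2168 to 2450.1 in effector cKO-labelled against 2001 to 2140.0 in effector WT libraries, and 5463 to 5778 in memory cKO-labelled against 3916 to 4154 in memory WT libraries. Hspa9 was thus higher in the libraries labelled cKO, with log2 fold changes of 0.69 (naive), 0.16 (effector) and 0.48 (memory) (limma, adjusted p = 1.3e-05, 0.0335 and 3.4e-04). The reads may lie outside the deleted part of the gene, so the labels are used as given and every direction below is that of cKO-labelled libraries relative to WT libraries. The 3 naive cKO-labelled libraries held 2771 to 3056 normalised reads of the Y-linked gene Ddx3y and the naive WT libraries 0, while Xist averaged 4428 ± 279 in cKO-labelled and 16393 ± 1514 in WT naive libraries (SD, n = 3 each); sex and genotype therefore cannot be told apart in naive cells. Of the 5 sex-linked genes looked at, Xist alone was measured in the effector and memory tables, so every comparison below that uses the naive cKO-labelled libraries, between subsets or in an interaction, also carries this difference. The 7 CD8 T cell markers were measured in every group, and their sums were lower in cKO-labelled libraries without overlap in each subset. In CPM (reads scaled to the library total) they were 4500.3 to 4584 in naive cKO-labelled against 5229 to 5414 in naive WT libraries, 5101 to 5319 in effector cKO-labelled against 5871 to 5977 in effector WT libraries, and 3667 to 4271 in memory cKO-labelled against 4543 to 4965 in memory WT libraries. Called lower were 7 of 7 (naive), 2 of 7 (effector) and 3 of 7 (memory), against 11.9%, 9.37% and 7.00% of all genes. In effector cells 3 of the 7 estimates lay above 0. The 15 cell cycle genes summed to 490 to 531 CPM in naive cKO-labelled against 189 to 192 CPM in naive WT libraries, 3073 to 3180 CPM in effector cKO-labelled against 4262 to 4394 CPM in effector WT libraries, and 681 to 737 CPM in memory cKO-labelled against 547 to 557 CPM in memory WT libraries. The 7 measured of 10 gamma-delta T cell markers summed to 50.6 to 59.6, 67.4 to 69.6 and 129 to 163 CPM in naive, effector and memory cKO-labelled libraries, against 9.61 to 11.3, 11.1 to 12.5 and 20.8 to 21.9 CPM in the matching WT libraries. The 9 myeloid markers summed to 253 to 350 CPM in memory cKO-labelled and 27.6 to 31.5 CPM in memory WT libraries. All 9 were called higher, against 12.1% of all genes, and none was at 0. The part of these markers in the results below was not tested. In bulk RNA, fewer cells of a type and less RNA per cell cannot be told apart.

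Per length, the member genes spanned a wide range of levels. In RPKM (recovered reads scaled to the library total and the deposited exon length), Lbr, the lamin B receptor that is also a sterol reductase, was highest in all 6 groups, at 66.8 ± 3.03 RPKM in naive cKO-labelled and 68.3 ± 3.13 RPKM in naive WT cells (SD, n = 3 each). Acly, which makes cytosolic acetyl-CoA from citrate, ranked 2 in every group, at 43.0 ± 2.67 RPKM in naive cKO-labelled and 42.8 ± 0.958 RPKM in naive WT cells. The lowest sterol genes in naive WT cells were Sqle, the squalene epoxidase, at 1.40 ± 0.025 RPKM and Idi1, the isopentenyl diphosphate isomerase, at 1.53 ± 0.0732 RPKM. Scd1, a stearoyl-CoA desaturase, was lowest in naive cells, at 0.245 ± 0.0772 RPKM in cKO-labelled and 0.0125 ± 0.0122 RPKM in WT cells. Its paralogue Scd2 ranked 3 of 32 at 38.6 ± 0.766 RPKM in naive cKO-labelled cells and 7 of 32 at 13.8 ± 0.357 RPKM in naive WT cells.

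In naive cells the regulator Insig1 and the desaturase Scd2 were higher in cKO-labelled libraries, and the sterol isomerase gene Ebp was lower. Values are reads divided by a size factor that the authors set within each table (normalised reads), and a gene was called at a Benjamini-Hochberg adjusted p under 0.05 in limma over all genes tested. In this comparison 12.9% of 13885 genes were called higher and 11.9% lower, or 1796 and 1658 genes, which became 2889 and 819 genes when the libraries were scaled by their totals. That scaling moved the median of all genes by 0.118 on the log2 scale. Beside the sex-linked difference given above, 14 of 15 cell cycle genes were called higher in naive cKO-labelled libraries. Naive T cell markers were called lower in 5 of 6 and higher in 1. Of the tested effector T cell markers 5 of 6 were higher and 1 lower. Their sum was lower, at 54.2 to 60.6 CPM in cKO-labelled against 71.6 to 77.3 CPM in WT libraries. CD4 T cell markers were higher in 3 of 5 tested, and B cell markers in 3 of 5 tested with 1 lower. The sum of all 9 B cell markers was nevertheless lower in naive cKO-labelled libraries without overlap. It was 18.6 to 21.4 CPM in naive cKO-labelled against 22.3 to 23.6 CPM in naive WT libraries. The part of these lists was not tested.

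Among the regulators, 1 of 5 was called, and it was higher. Insig1 (ENSMUSG00000045294, GRCm39 chromosome 5, 28276361 to 28283660), which retains SCAP in the endoplasmic reticulum, had 516, 468 and 472 normalised reads in naive cKO-labelled libraries, against 362, 320 and 351 in naive WT libraries. Every cKO-labelled library was above every WT library, and the log2 fold change was 0.49 (limma, adjusted p = 0.00267; SE 0.09). Srebf2 averaged 2634 ± 344 in cKO-labelled and 3155 ± 401 in WT naive libraries with overlapping groups (limma, adjusted p = 0.0891). Srebf1, Scap and Insig2 had log2 fold changes of -0.10, -0.18 and 0.08, with overlapping groups and adjusted p between 0.324 and 0.631 in limma.

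Of the 21 sterol pathway genes, 1 was called lower in naive cKO-labelled cells and 20 were not called. Their median log2 fold change was -0.08, against -0.01 over all genes tested, and under library totals it was 0.04 against 0.11. Ebp, which moves a double bond in the sterol ring and lies on the X chromosome (ENSMUSG00000031168, GRCm39 chromosome X, 8051568 to 8059751), had 356, 377 and 328 normalised reads in cKO-labelled libraries, against 566, 490 and 438 in WT libraries. The groups did not overlap, and the log2 fold change was -0.49 (limma, adjusted p = 0.00781; SE 0.11); sex cannot be told apart from genotype here. Nsdhl, the other X-linked sterol gene, averaged 250.4 ± 0.546 in cKO-labelled and 247 ± 22.3 in WT libraries with overlapping groups, a log2 fold change of 0.02. Fdps, the farnesyl diphosphate synthase, and Acat2, the cytosolic thiolase, had log2 fold changes of -0.36 and -0.31 that missed the threshold (limma, adjusted p = 0.075 and 0.067). Acat2 has a near-identical neighbouring paralogue in the mouse, so its reads may be shared.

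Among the 6 fatty acid genes, Scd2 was called higher in naive cKO-labelled cells, 4 were not called, and Scd1, which had few reads, is described apart. Scd2 (ENSMUSG00000025203, GRCm39 chromosome 19, 44282113 to 44295303), which puts the first double bond into saturated fatty acids, had 3262, 3341 and 3216 normalised reads in naive cKO-labelled libraries, against 1284, 1235 and 1290 in naive WT libraries. The lowest cKO-labelled library was far above the highest WT library, and the fold was 2.58, a log2 fold change of 1.37 (limma, adjusted p = 3.66e-08; SE 0.06). Scd1 (ENSMUSG00000037071, GRCm39 chromosome 19, 44382894 to 44396318) had 17.2, 13.6 and 25.1 normalised reads in cKO-labelled libraries, against 0, 2.02 and 1.09 in WT libraries. These rest on 59 reads in cKO-labelled and 3 reads in WT libraries, a CPM ratio of 19.1 with an exact 95% interval of 6.24 to 95.4 that covers counting error only. Scd1 passed the filter on low values only through the cKO-labelled libraries, so no support is drawn from its call (limma, adjusted p = 0.00172). Scd1 and Scd2 are close paralogues, and how reads that match both were counted is not given in the sources used here. Acaca, the acetyl-CoA carboxylase, averaged 559 ± 28.2 in cKO-labelled and 479.8 ± 7.88 in WT libraries; the groups did not overlap but the difference missed the threshold (limma, adjusted p = 0.072).

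**Figure D1:**
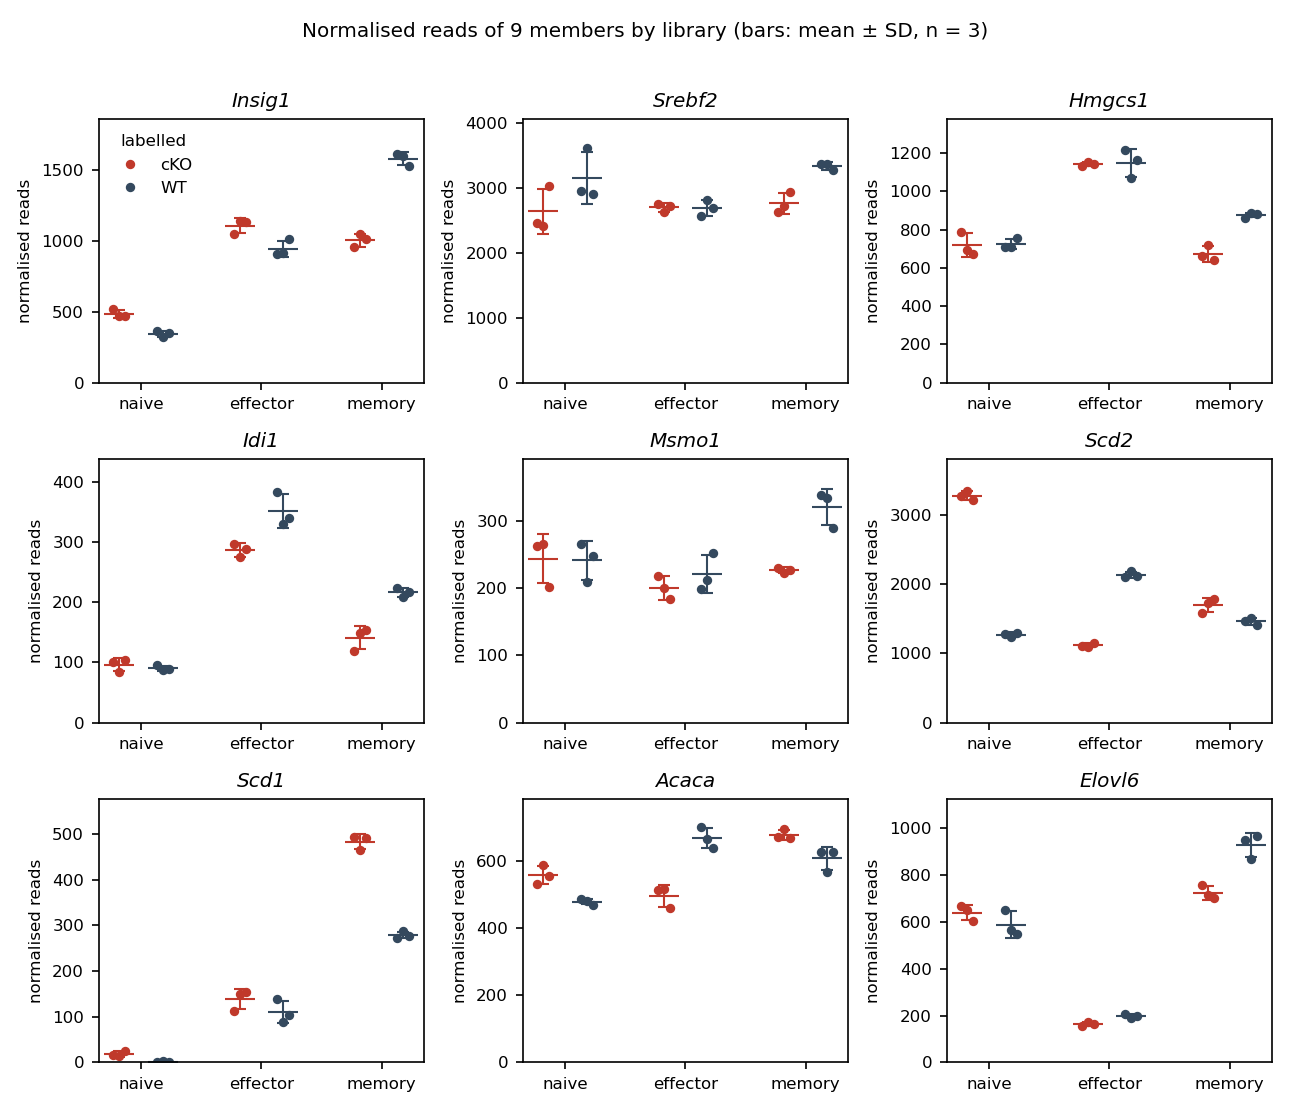
Normalised reads (y axis, linear, from 0) of 9 members in each library, by subset on the x axis, with cKO-labelled libraries in red left of WT libraries in dark blue; horizontal bars are means and whiskers 1 SD (n = 3). Scd2 lies near 3272.8 in naive cKO-labelled and 1269.7 in naive WT libraries, and in effector cells the order is turned round, at 1116 in cKO-labelled and 2128.5 in WT libraries.

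In effector cells the fatty acid genes Scd2, Acaca and Fasn were lower in cKO-labelled libraries, as were the sterol genes Lbr and Idi1, while the regulators Insig1 and Scap were higher. Over all genes 10.7% of 13815 were called higher and 9.37% lower. Cell cycle genes moved with this comparison, 15 of 15 of them called lower. The 7 erythroid markers were all called higher and summed to 89.2 to 94.7 CPM in effector cKO-labelled against 13.2 to 14.9 CPM in effector WT libraries, none at 0. Myeloid markers were called higher in 6 of 9 and lower in 1, and B cell markers higher in 4 of 9. NK cell markers were higher in 3 of 5 and lower in 2, and naive T cell markers higher in 2 of 6 and lower in 3. Effector T cell markers were higher in 3 of 7, and CD4 T cell markers in 3 of 6. The part of all these lists in the member values was not tested.

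Of the 5 regulators, 2 were called higher. Insig1 had 1047, 1142 and 1132 normalised reads in effector cKO-labelled libraries, against 910, 916 and 1010 in effector WT libraries. All cKO-labelled libraries were above all WT libraries by a small margin, at a log2 fold change of 0.23 (limma, adjusted p = 0.0105; SE 0.06). Scap (ENSMUSG00000032485), the escort of SREBP precursors, had 925, 941 and 992 in cKO-labelled libraries, against 804, 823 and 863 in WT libraries. The groups did not overlap and the log2 fold change was 0.20 (limma, adjusted p = 0.0204; SE 0.06). Both calls depended on single libraries: Insig1 missed the threshold without cKO-labelled replicate 2 (adjusted p = 0.0527) or WT replicate 1 (0.055), and Scap without cKO-labelled replicate 3 (0.095) or WT replicate 1 (0.0867), in limma. Srebf1, Srebf2 and Insig2 had log2 fold changes between -0.05 and 0.01 in effector cells, with overlapping groups.

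Sterol pathway genes as a group had a median log2 fold change of -0.003 in effector cells, against -0.005 over all genes, with 2 of 21 called lower and 19 not called. Lbr (ENSMUSG00000004880, GRCm39 chromosome 1, 181642900 to 181670611) had 6182, 6152 and 6198 normalised reads in effector cKO-labelled libraries, against 7599, 7754 and 7648 in effector WT libraries. Libraries within a genotype lay close together and the genotypes were well apart, at a log2 fold change of -0.31 (limma, adjusted p = 1.55e-06; SE 0.03). Idi1 had 297, 275 and 288 in cKO-labelled libraries, against 383, 330 and 340 in WT libraries. Its groups did not overlap, at a log2 fold change of -0.29 (limma, adjusted p = 0.0306; SE 0.09), but the call was lost without cKO-labelled replicate 2, cKO-labelled replicate 3, WT replicate 1 or WT replicate 3 (adjusted p from 0.06 to 0.158). Sqle averaged 391 ± 32.5 in cKO-labelled and 465 ± 60.7 in WT effector libraries, and its groups overlapped (limma, adjusted p = 0.0852).

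Of the 6 fatty acid genes, 3 were called lower and 3 were not called in effector cells, with a median log2 fold change of -0.26 against -0.005 over all genes. Scd2 had 1108, 1095 and 1147 normalised reads in effector cKO-labelled libraries, against 2094, 2184 and 2108 in effector WT libraries. The WT libraries were all at nearly the same higher level, and the fold of cKO-labelled over WT was 0.525, a log2 fold change of -0.93 (limma, adjusted p = 5.77e-11; SE 0.05). Acaca (ENSMUSG00000020532), which makes the malonyl-CoA used for chain growth, had 513, 517 and 459 in cKO-labelled libraries, against 702, 665 and 641 in WT libraries. The groups were well separated at a log2 fold change of -0.43 (limma, adjusted p = 2.48e-04; SE 0.07). Fasn (ENSMUSG00000025153), the fatty acid synthase itself, had 1795, 1705 and 1611 in cKO-labelled libraries, against 2078, 2097 and 1896 in WT libraries, which did not overlap, at a log2 fold change of -0.25 (limma, adjusted p = 0.00231; SE 0.05). Elovl6, which lengthens palmitate, averaged 164 ± 8.33 in cKO-labelled and 199 ± 8.35 in WT libraries without overlap and missed the threshold (limma, adjusted p = 0.0952). Acly and Scd1 had log2 fold changes of -0.05 and 0.34, with overlapping groups. In 1 fit of all 18 libraries Fasn, Scap and Idi1 were not called in effector cells (limma, adjusted p = 0.124, 0.248 and 0.162).

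In memory cells Insig1, Srebf2 and the sterol genes Hmgcs1, Idi1, Msmo1 and Stard4 were lower in cKO-labelled libraries. Among the fatty acid genes Elovl6 was lower and Scd1 higher. Over all genes 12.1% of 14622 were called higher and 7.00% lower, or 1769 and 1024 genes, which became 2270 and 639 under library totals. Myeloid and gamma-delta T cell markers were higher in these cKO-labelled libraries, with the sums given above. Naive T cell markers were called lower in 6 of 6 (4269.9 to 4522 CPM in memory cKO-labelled against 5989 to 6248 CPM in memory WT libraries), and effector T cell markers higher in 5 of 7 and lower in 1 (316 to 357 CPM in cKO-labelled against 190.2 to 204 CPM in WT libraries). B cell markers were higher in 7 of 9 (228 to 249 CPM in cKO-labelled against 119.6 to 129 CPM in WT libraries), NK cell markers in 4 of 5 (142 to 160.0 CPM in cKO-labelled against 119 to 136 CPM in WT libraries) and CD4 T cell markers in 2 of 6 (35.4 to 39.1 CPM in cKO-labelled against 17.0 to 19.9 CPM in WT libraries). The part of these lists in the member values was not tested.

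Insig1 had 954, 1046 and 1010 normalised reads in memory cKO-labelled libraries, against 1613, 1594 and 1530 in memory WT libraries. No library of either genotype came near the other group, and the log2 fold change was -0.65 (limma, adjusted p = 5.14e-05; SE 0.07). Srebf2 (ENSMUSG00000022463), which encodes SREBP2, had 2621, 2719.5 and 2934 in cKO-labelled libraries, against 3359, 3371 and 3266 in WT libraries. The groups did not overlap at a log2 fold change of -0.27 (limma, adjusted p = 0.017; SE 0.07), and the call was lost without WT replicate 1, 2 or 3 (adjusted p from 0.0535 to 0.078). Scap averaged 1338 ± 90.7 in cKO-labelled and 1138 ± 24.9 in WT libraries without overlap, with p just above the threshold (log2 fold change 0.23; limma, adjusted p = 0.054). Thus 2 of 5 regulators were called lower and 3 were not called.

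Of the 21 sterol pathway genes, 4 were called lower in memory cKO-labelled cells and 17 were not called. The median log2 fold change was -0.27 against -0.02 over all genes, and 19 of the 21 estimates lay below 0; under library totals these were -0.20 against 0.06, and 17 of 21. In 11 of the 21 genes every cKO-labelled library was below every WT library, as in 16.8% of all genes tested. At an unadjusted p under 0.05 in limma 12 of the 21 were lower, against 14.4% of all genes.

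On the mevalonate arm, which leads from acetyl-CoA to farnesyl diphosphate, 6 of 8 estimates were below 0, and 5 of 8 under library totals. Hmgcs1 (ENSMUSG00000093930, GRCm39 chromosome 13, 120151915 to 120169796), the cytosolic HMG-CoA synthase whose promoter held the sterol response element, had 661, 721 and 639 normalised reads in memory cKO-labelled libraries, against 862, 885 and 884 in memory WT libraries. The WT libraries lay close together and above all cKO-labelled libraries, at a log2 fold change of -0.38 (limma, adjusted p = 0.0053; SE 0.08). Idi1 (ENSMUSG00000058258, GRCm39 chromosome 13, 8935537 to 8942487) had 119, 149 and 155 in cKO-labelled libraries, against 224, 209 and 217 in WT libraries. Its cKO-labelled replicate 1 was the lowest and the groups did not overlap, at a log2 fold change of -0.63 (limma, adjusted p = 0.00694; SE 0.14). Mvd, the mevalonate diphosphate decarboxylase, had a log2 fold change of -0.04 with overlapping groups. With the deposited scaling the exceptions to the direction were Acat2 and Pmvk, the phosphomevalonate kinase, at log2 fold changes of 0.25 and 0.16 with overlapping groups.

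On the branch from squalene to cholesterol, 12 of 12 estimates were below 0, with a median of -0.29, and 11 of 12 under library totals. Msmo1 (ENSMUSG00000031604, GRCm39 chromosome 8, 65171173 to 65186826), the methylsterol monooxygenase, was the 1 gene called. It had 231, 223 and 228 normalised reads in memory cKO-labelled libraries, against 339, 334 and 289 in memory WT libraries, with no overlap and a log2 fold change of -0.49 (limma, adjusted p = 0.00709; SE 0.11). Sqle had 177, 186 and 165 in cKO-labelled libraries, against 228, 280.1 and 207 in WT libraries. Its groups did not overlap and its log2 fold change was -0.42 (limma, adjusted p = 0.0503; SE 0.14), and its adjusted p was under 0.05 in 5 of 15 alternatives. Hsd17b7, a sterol ketoreductase, averaged 129 ± 33.1 in cKO-labelled and 176 ± 8.08 in WT libraries, and Sc5d, the lathosterol desaturase, 329 ± 20.0 in cKO-labelled and 402 ± 40.9 in WT libraries; neither overlapped or was called (limma, adjusted p = 0.092 and 0.0864). Lss, the lanosterol synthase, and Dhcr7, which acts on 7-dehydrocholesterol, had log2 fold changes of -0.20 and -0.15 with overlapping groups. Lbr had 3362, 4899 and 4897 in cKO-labelled libraries, against 5469, 5331 and 5479 in WT libraries. Here cKO-labelled replicate 1 stood far below its group, and the difference was not called (log2 fold change -0.33; limma, adjusted p = 0.0901). Memory cKO-labelled replicate 1 stood apart beyond Lbr. Xist was 643 CPM in it, against 1089 and 980 CPM in cKO-labelled replicates 2 and 3. Its myeloid markers summed to 350 CPM, against 277 and 253 CPM. Without this library 3049 genes were called in memory cells, against 2793 with it. Stard4 (ENSMUSG00000024378), a cholesterol carrier between membranes, had 456, 480 and 521 in cKO-labelled libraries, against 608, 615 and 553 in WT libraries. The groups did not overlap at a log2 fold change of -0.29 (limma, adjusted p = 0.0465; SE 0.09), but the call was lost when any 1 of the 6 libraries was left out (adjusted p from 0.0503 to 0.16). Ebp, lower in naive cells, averaged 431 ± 50.2 in cKO-labelled and 431 ± 5.68 in WT memory libraries.

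Among the fatty acid genes in memory cells 1 was called higher, 1 lower and 4 were not called, with a median log2 fold change of 0.19 against -0.02 over all genes. Scd1 had 494, 465 and 491 normalised reads in memory cKO-labelled libraries, against 272, 287 and 277 in memory WT libraries. The groups were far apart, at a log2 fold change of 0.79 (limma, adjusted p = 7.43e-05; SE 0.09), which missed the threshold in 1 fit of all 18 libraries (0.06). Elovl6 (ENSMUSG00000041220) had 757, 716 and 701 in cKO-labelled libraries, against 951, 871 and 967 in WT libraries. They did not overlap at a log2 fold change of -0.36 (limma, adjusted p = 0.00783; SE 0.08), and the call was lost without WT replicate 3 (0.054). Scd2 averaged 1694 ± 105 in cKO-labelled and 1458 ± 54.2 in WT memory libraries without overlap and was not called (log2 fold change 0.22; limma, adjusted p = 0.0675). Fasn and Acaca had log2 fold changes of 0.23 and 0.16 with groups that did not overlap and Acly one of -0.18, all with p above the threshold (limma, adjusted p = 0.0834, 0.206 and 0.0813).

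**Figure D2:**
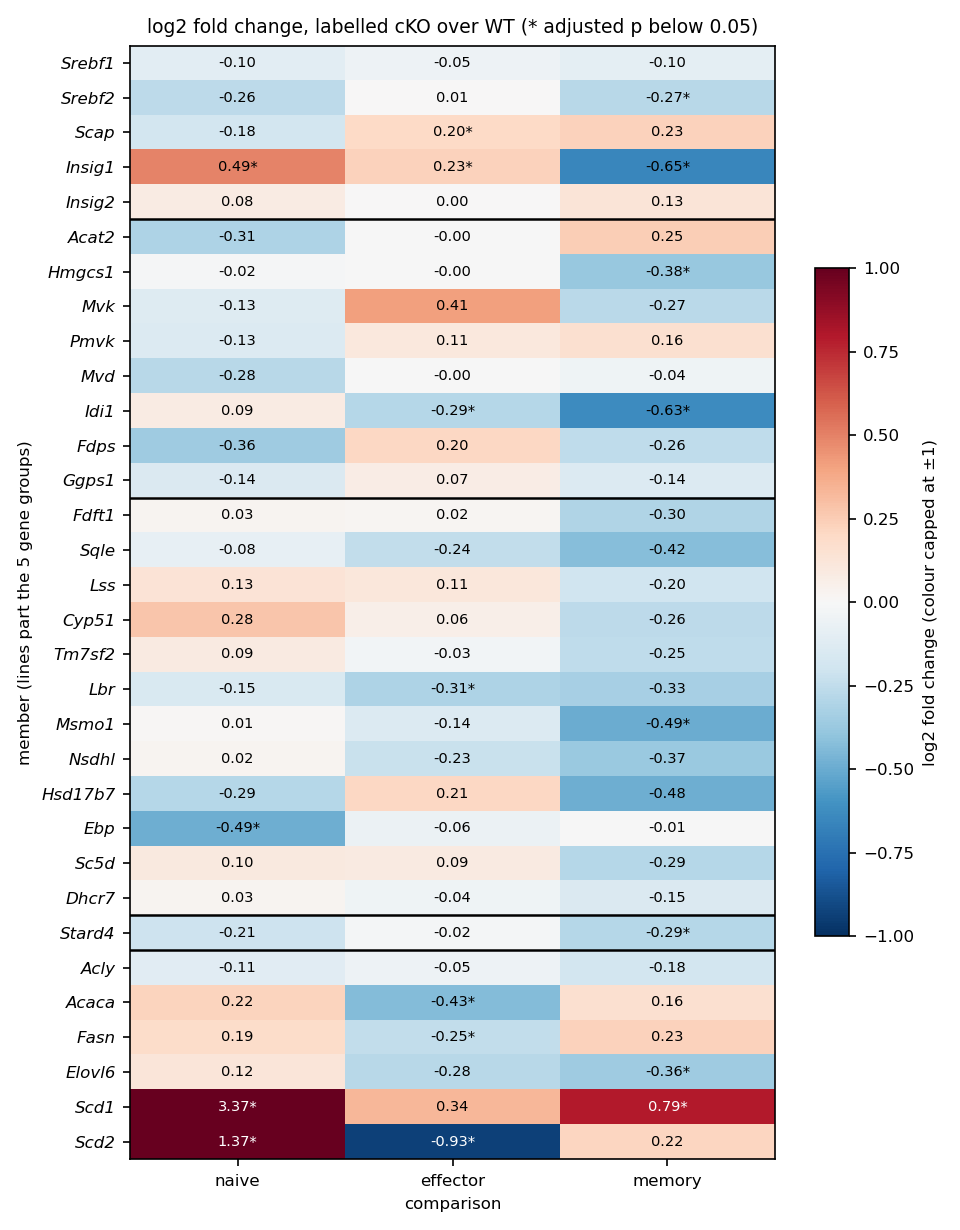
Log2 fold change of cKO-labelled over WT for the 32 members (rows, lines part regulators, mevalonate arm, squalene to cholesterol, sterol transport and fatty acid genes) in naive, effector and memory cells (columns); red is higher and blue lower in cKO-labelled libraries, colour is capped at 1 in either direction, and an asterisk marks an adjusted p under 0.05 in limma. The memory column is blue for 19 of 21 sterol pathway genes (17 of 21 under library totals). The rows of Acaca, Fasn, Elovl6 and Scd2 change colour between columns, while Acly stays below 0 and Scd1 above 0 in all columns.

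The authors' deposited table of their own test gave the same direction for every member that it and limma both called, 4 for naive, 5 for effector and then 7 for memory cells. Both tests used the same reads, so the shared direction is no separate support. The naive genes include Scd1, from whose call no support is drawn. Limma called Scap and Idi1 in effector and Stard4 in memory cells in addition.

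Whether the genotype differences themselves differed between subsets was tested with limma interaction contrasts over all 18 libraries. Over 15694 genes, 18.5% differed between effector and naive, 16.9% between memory and naive and 8.71% between memory and effector cells. Between effector and naive cells 5 of 6 fatty acid genes differed, each with a lower estimate in effector cells; Scd1 is among them and rests on 3 reads in naive WT libraries, and the calls of Fasn and Elovl6 were lost in 7 and 4 of the 18 fits that left out 1 library. The Scd2 difference was -0.93 in effector and 1.37 in naive cells, an interaction of -2.30 (limma, adjusted p = 3.96e-15; SE 0.08). The Acaca estimates lay on opposite sides of 0 in the same contrast, at -0.43 in effector and 0.22 in naive cells (interaction -0.65 ± 0.10, SE; limma, adjusted p = 8.81e-05). Between memory and effector cells Scd2, Acaca and Fasn had interactions of 1.15, 0.59 and 0.48, all towards cKO-labelled memory cells.

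Between memory and naive cells 6 of 21 sterol pathway genes differed, 4 of them lower in memory: Hmgcs1, Idi1, Cyp51 and Sc5d. The other 2, Acat2 and Ebp, were higher in memory, with interactions of 0.56 and 0.48 (limma, adjusted p = 0.0246 and 0.0141). The calls of Cyp51, Sc5d and Acat2 were lost in 16, 10 and 5 of the 18 fits that left out 1 library, and that of Ebp in none. The Idi1 difference was -0.63 in memory and 0.09 in naive cells, an interaction of -0.71 (limma, adjusted p = 0.00686; SE 0.18). That of Hmgcs1 was -0.38 in memory and -0.02 in naive cells, an interaction of -0.37 (limma, adjusted p = 0.0156; SE 0.10), lost without naive cKO-labelled replicate 1 (0.0577). Insig1 had the largest interactions among the 5 regulators, at -0.65 in memory against 0.49 in naive and 0.23 in effector cells, with interactions of -1.15 ± 0.10 against naive and -0.88 ± 0.10 against effector (SE; limma, adjusted p = 3.15e-08 and 3.71e-06). The contrasts share libraries, so they are not independent of each other.

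**Figure D3:**
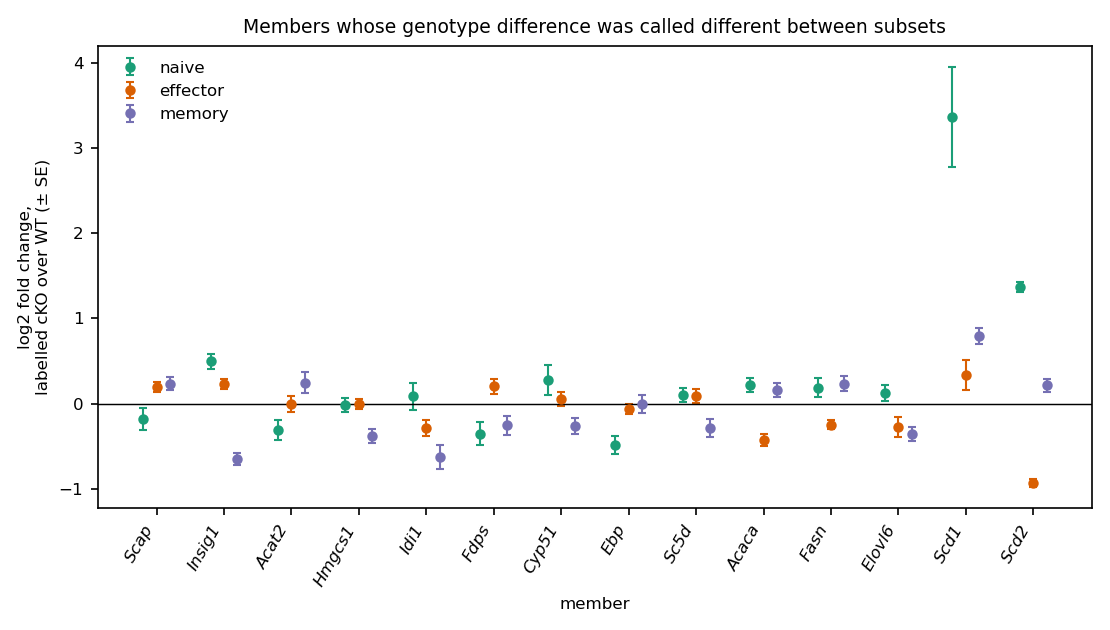
Log2 fold change of cKO-labelled over WT (y axis, points, whiskers 1 SE) in naive, effector and memory cells for the 14 members with at least 1 called interaction. Scd2 sits at 1.37 (naive), -0.93 (effector) and 0.22 (memory), and Insig1 at 0.49, 0.23 and -0.65.

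Levels were then compared between subsets within each genotype, on recovered reads scaled together by TMM (in CPM), since the deposited values are scaled within each subset. In WT cells 33.5% of 15840 genes were called higher and 33.1% lower in effector over naive cells. Of the 21 sterol pathway genes, 13 were higher, 3 lower and 5 not called, with a median log2 fold change of 0.55 against -0.01 over all genes. Idi1 averaged 23.0 ± 1.85 CPM in effector WT and 5.32 ± 0.247 CPM in naive WT cells (SD, n = 3 each), a fold of 4.33 (limma, adjusted p = 2.78e-13). Sqle had a fold of 3.95, at 30.5 ± 3.95 CPM in effector and 7.73 ± 0.126 CPM in naive WT cells, and Cyp51, the lanosterol demethylase, a fold of 3.32, at 36.4 ± 3.83 CPM in effector and 10.95 ± 3.03 CPM in naive WT cells. Stard4 had a fold of 2.88 and Fdft1, the squalene synthase, of 2.04. The sterol genes that were lower in effector WT cells were Tm7sf2, a sterol reductase with the same activity as Lbr (fold 0.351), Mvk, the mevalonate kinase (0.496), and Ggps1, which makes geranylgeranyl diphosphate (0.829). Tm7sf2 shares a stretch of its locus with Vps51 on the same strand, and Fdft1, Cyp51, Ggps1, Srebf1 and Lbr overlap genes on the other strand; whether counting used strand is not given in the sources used here.

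Regulators and fatty acid genes were mixed in effector over naive WT cells. Insig1 averaged 62.0 ± 3.60 CPM in effector and 20.3 ± 1.31 CPM in naive WT cells, a fold of 3.06 (limma, adjusted p = 1.37e-15). Scap and Srebf1 were called lower at folds of 0.578 and 0.814 (limma, adjusted p = 4.1e-07 and 0.00695), the second of which was lost without naive WT replicate 2 (0.076). Of the 6 fatty acid genes 4 were higher and 2 lower. Scd2 averaged 139.6 ± 3.37 CPM in effector and 74.7 ± 1.83 CPM in naive WT cells, while Elovl6 averaged 13.1 ± 0.54 CPM in effector and 34.7 ± 3.38 CPM in naive WT cells (limma, adjusted p = 1.17e-12 and 8.39e-13). Scd1 counted 326 reads in effector WT against 3 reads in naive WT libraries, a CPM ratio of 111 with an exact 95% interval of 37.6 to 540 for counting error only.

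The same comparison in cKO-labelled cells gave sterol counts of 15 higher, 1 lower and 5 not called, with a background of 33.7% higher and 34.2% lower over all genes. Scaling by totals changed these to 13 higher and 5 lower, and moved the share of higher among all called genes to 39.2%, against 49.7% with TMM; the median of all genes was then -0.21. Scd2 ran the other way from WT, at a log2 fold change of -1.41 in effector over naive cKO-labelled cells and 0.90 in effector over naive WT cells.

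Memory over naive WT cells showed 9 of 21 sterol genes higher, 3 lower and 9 not called, with a median of 0.26, where 19.6% of all genes were called higher and 15.9% lower. Insig1 averaged 96.1 ± 3.01 CPM in memory and 20.3 ± 1.31 CPM in naive WT cells, a fold of 4.75 and its highest level in the 6 groups. Idi1 and Cyp51 had folds of 2.48 and 2.11. Of the 6 fatty acid genes 4 were higher and 2 not called, and Elovl6 had a fold of 1.63. In cKO-labelled cells 8 sterol genes were higher, 4 lower and 9 not called in memory over naive cells, with a median of 0.04 that was -0.04 under library totals; the backgrounds were 21.4% higher and 19.2% lower, and the share of higher among called genes was 52.7% with TMM and 41.6% with totals.

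In memory over effector WT cells 12 of 21 sterol genes were lower, 4 higher and 5 not called, against 31.0% of all genes higher and 29.9% lower. Stard4, Sqle and Ebp had folds of 0.483, 0.476 and 0.451. The opposite held for Elovl6, at 56.6 ± 2.54 CPM in memory and 13.1 ± 0.54 CPM in effector WT cells, a fold of 4.33 (limma, adjusted p = 6.57e-16). In cKO-labelled cells 13 sterol genes were lower, 2 higher and 6 not called (backgrounds 29.7% higher and 28.0% lower), and 5 of 6 fatty acid genes were higher and 1 lower.

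**Figure D4:**
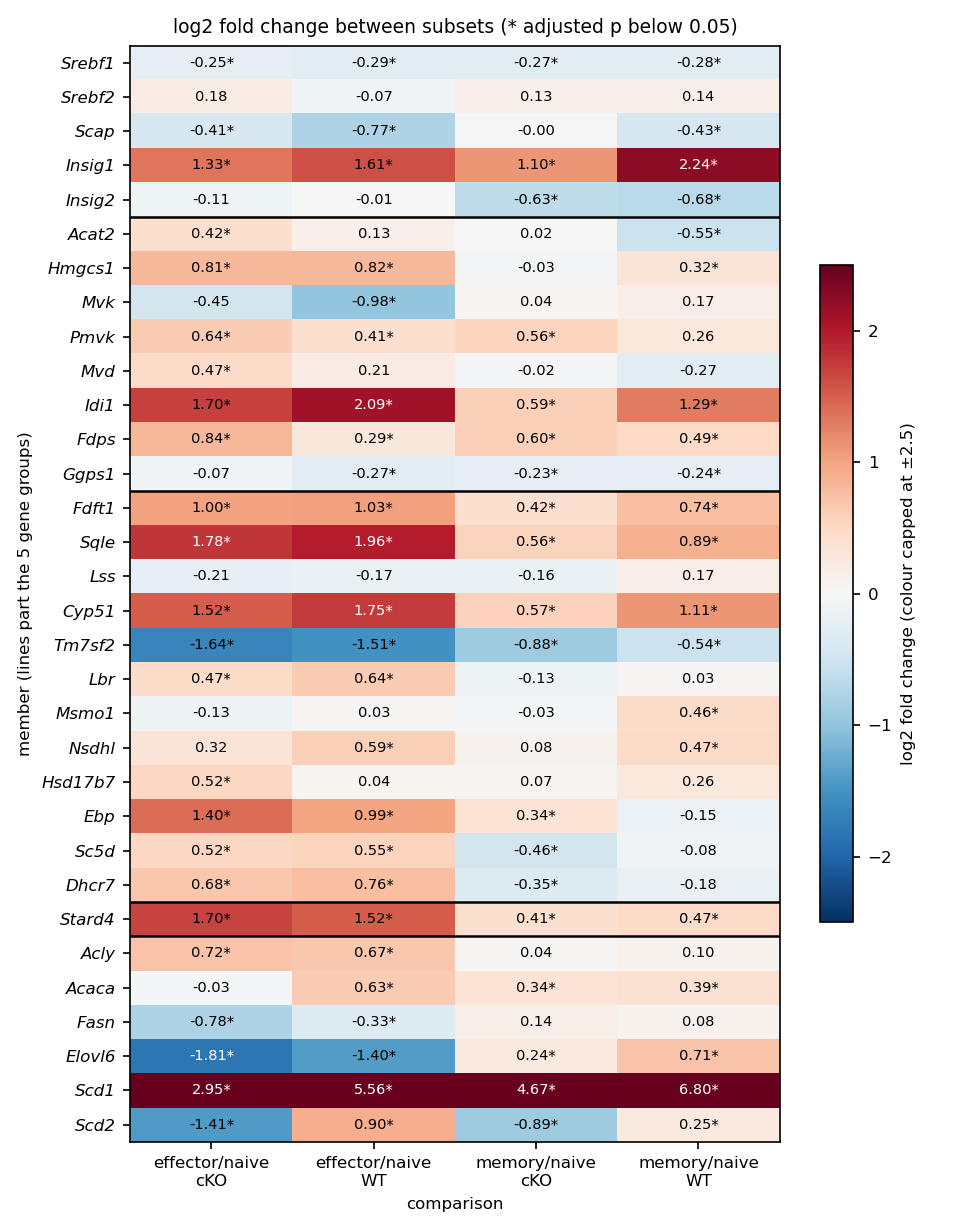
Log2 fold change of the 32 members between subsets in cKO-labelled and WT cells (columns: effector over naive and memory over naive, cKO-labelled left of WT); red is higher in effector or memory, blue higher in naive cells, colour is capped at 2.5 in either direction, and an asterisk marks an adjusted p under 0.05 in limma. Scd2 is blue in the cKO-labelled columns (-1.41 and -0.89) and red in the WT columns (0.90 and 0.25).

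Other genes of the pathways were taken from 4 lists. Over all genes, 12.9% were called higher and 11.9% lower in naive cells, 10.7% and 9.37% in effector cells, and 12.1% and 7.00% in memory cells. Several counts in these lists lie near those shares, and none was tested against them. The counts are therefore not read as results about the lists. Of 13 further sterol genes, 12 were tested in memory cells, where 4 were lower and 1 higher in cKO-labelled libraries, at a median log2 fold change of -0.09. Npc2, the lysosomal cholesterol carrier, was among the lower genes, at a log2 fold change of -0.52 (limma, adjusted p = 0.00324). Npc1, the lysosomal cholesterol transporter, was the 1 higher (0.28; limma, adjusted p = 0.0326) and is named after its value was seen, because the count is small.

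In effector cells 1 of the 12 tested was higher and 2 were lower, among them Tmem97, a sterol-regulated membrane protein, at -0.47 (limma, adjusted p = 0.00174). In naive cells 1 of 13 was called, Npc2, at 6118 ± 442 in cKO-labelled and 8862 ± 465 normalised reads in WT libraries (log2 fold change -0.54; limma, adjusted p = 2.15e-04). Among 10 genes of SREBP processing, Erlin1, which takes part in sterol-regulated protein degradation, was higher in naive (0.39) and memory cells (0.66), and Mbtps1, the site-1 protease that cleaves SREBPs, and Rnf145, a sterol-responsive ubiquitin ligase, were lower in effector cells (-0.15 and -0.23); these were the calls in that list.

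Of 20 further fatty acid genes, 17 were tested in naive cells (2 higher, 2 lower) and 18 each in effector (2 higher and 16 not called) and memory cells (2 higher, 2 lower). Lpin1, the phosphatidate phosphatase of glycerolipid synthesis, averaged 5618 ± 66.1 in effector cKO-labelled and 3849 ± 48.3 normalised reads in effector WT libraries (log2 fold change 0.55; limma, adjusted p = 2.38e-09), and was higher in memory cells too (0.53). Mid1ip1, an activator of acetyl-CoA carboxylase, averaged 268 ± 26.8 in naive cKO-labelled and 129 ± 5.01 in naive WT libraries (1.05; limma, adjusted p = 1.06e-04). Fads2, a desaturase of polyunsaturated fatty acids, averaged 48.8 ± 1.48 in memory cKO-labelled and 9.01 ± 2.22 in memory WT libraries (2.34; limma, adjusted p = 2.23e-04). Fads2 passed the filter on low values only through the cKO-labelled libraries, so no support is drawn from its call. Acss2, which makes acetyl-CoA from acetate, was lower in naive (-0.43) and memory cells (-0.32). Among 8 genes of the LXR sterol sensor, 2 were higher and 2 lower in naive cells, 1 was lower in effector cells, and 1 was higher and 1 lower in memory cells. Abca1, a cholesterol efflux pump, averaged 1672 ± 21.2 in naive cKO-labelled and 1098 ± 58.1 in naive WT libraries (0.61; limma, adjusted p = 6.05e-05), and Abcg1, another efflux pump, was lower in effector cells (-0.45; limma, adjusted p = 7.34e-05). Mylip, a ubiquitin ligase, was higher (0.33) and Smpdl3a, a phosphodiesterase, lower (-0.49) in naive cells.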

How the data were processed

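Per the submitters' processing notes the authors used GRCm39; HISAT2 2.2.1, featureCounts 2.0.6, DESeq2 1.42.0 and fastp are named, with no order. The values the authors deposited are a normalised signal, a read count over the library's size factor, set within each subset's table; multiplying back gave whole reads for 100% of values within 1e-05. The tables also hold the authors' own log2 fold changes (WT over cKO) and adjusted p-values, as deposited, used here only beside limma's calls. Depth was 14771251 to 18049774 reads per library. Genotypes were compared within a table by limma 3.58.1 (R 4.3.3, trend) on log2(normalised reads + 1) over genes reaching 10 normalised reads in 3 or more libraries, with Benjamini-Hochberg adjustment over all genes and calls under 0.05; the pseudocount understates changes of low genes. Interactions used 15694 genes of all 3 tables. Subsets were compared on log2(CPM + 0.1) of recovered reads with edgeR 4.0.16 TMM sizes. The members and gene lists were chosen with earlier results of these data known. Genes named are the members and, of each further list up to 4 called genes with the smallest adjusted p; some of these are not reported here. Alternatives were scaling, pseudocount, filter, edgeR and DESeq2 1.42.0 count tests, a replicate block, 1 fit of all libraries and leaving out each library; the limma fits were tested on simulated data.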

Additional observations from a re-analysis of the deposited data

Results flagged for a closer look

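The results here were picked out because the genotype difference of a member differed between subsets in a limma interaction contrast over all 18 libraries (first subset minus second, log2 scale). Between effector and naive cells the interactions were 0.56 for Fdps, 0.43 for Ebp, -0.65 for Acaca, -0.43 for Fasn, -0.40 for Elovl6, -3.03 for Scd1 and -2.30 for Scd2. Between memory and naive cells they were 0.42 for Scap, -1.15 for Insig1, 0.56 for Acat2, -0.37 for Hmgcs1, -0.71 for Idi1, -0.54 for Cyp51, 0.48 for Ebp, -0.38 for Sc5d, -0.48 for Elovl6, -2.58 for Scd1 and -1.15 for Scd2. Between memory and effector cells they were -0.88 for Insig1, -0.38 for Hmgcs1, 0.59 for Acaca, 0.48 for Fasn and 1.15 for Scd2. The values of Scd1 depend on the pseudocount because its naive WT libraries hold 3 reads in all.

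Leaving out 1 of the 18 libraries at a time ended none of the called interactions of Acaca, Scd1, Scd2, Insig1 and Idi1, nor those of Ebp and Elovl6 between memory and naive cells. For Scd1 this lends no support, because its naive WT libraries hold 3 reads in all and stay near 0 whichever is left out. The Scap call between memory and naive cells was lost in 15 of 18 such fits (limma, adjusted p from 0.0536 to 0.148) and held only without naive cKO-labelled replicate 3, naive WT replicate 3 or memory cKO-labelled replicate 2. The Cyp51 call was lost in 16 of 18 (0.056 to 0.148) and held only without naive WT replicate 1 or effector WT replicate 2. The Sc5d call was lost in 10 of 18 (0.0527 to 0.13), without any 1 naive library, effector WT replicate 3, memory cKO-labelled replicate 3, or memory WT replicate 1 or 3. The Acat2 call was lost in 5 (0.0592 to 0.0737), without naive cKO-labelled replicate 2, naive WT replicate 2, memory cKO-labelled replicate 3, or memory WT replicate 1 or 2.

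Between effector and naive cells the Fdps call was lost in 5 of 18 fits (0.0584 to 0.0715), without naive cKO-labelled replicate 1 or 2, naive WT replicate 1, effector cKO-labelled replicate 1 or effector WT replicate 3. Ebp was lost in 6 (0.0541 to 0.0861), without naive cKO-labelled replicate 3, naive WT replicate 1, or effector replicate 1 or 3 of either genotype. Elovl6 was lost in 4 (0.0506 to 0.0592), without naive cKO-labelled replicate 1, naive WT replicate 3, or effector replicate 1 of either genotype. Fasn was lost in 7 (0.0577 to 0.0924), without naive cKO-labelled replicate 3, naive WT replicate 1 or 3, effector cKO-labelled replicate 2 or 3, or effector WT replicate 1 or 2. Between memory and effector cells Fasn was lost in 8 (0.0507 to 0.0878), without cKO-labelled replicate 2 or 3 or WT replicate 1 or 2 of either subset, and Hmgcs1 without effector WT replicate 2 or memory cKO-labelled replicate 3 (0.0694 and 0.0574).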

How the results depend on the processing

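No member result changed direction while called. In 1 fit of all 18 libraries, 3 sterol genes and 1 regulator were called lower in naive cKO-labelled cells, 1519 genes, 1 sterol gene lower and 1 regulator higher in effector cells, and 7 sterol and 2 fatty acid genes lower in memory cells. DESeq2 called 1 sterol gene lower in effector cells. Library totals gave 3 fatty acid genes higher, 1 regulator higher and 1 lower in memory cells. Whether the replicate numbers pair the libraries is not given in the sources used here. Correlations of same-numbered libraries were 0.02, -0.143 and -0.127 in naive, -0.009, 0.004 and 0.02 in effector and -0.135, -0.124 and 0.067 in memory cells. Those of differently numbered libraries ran from -0.086 to 0.199 in naive, -0.029 to 0.024 in effector and -0.163 to 0.23 in memory cells. With 3 libraries per group these values cannot decide on pairing. With the replicate block, Srebf2 (0.0668) and Stard4 (0.113) were not called in memory cells, which left 1 regulator lower, and 7 members differed between memory and naive and 3 between memory and effector cells; lost were Fasn (0.0576) and Elovl6 (0.0551) between effector and naive, Scap (0.115), Hmgcs1 (0.0557), Cyp51 (0.0901) and Sc5d (0.0845) between memory and naive, and Hmgcs1 (0.0759) and Fasn (0.0657) between memory and effector cells. Leaving out each library in turn gave 2127 to 3301 called genes in naive, 2082 to 2525 in effector and 1830 to 3049 in memory cells. In naive cells it gave 0 to 1 sterol genes higher and 1 to 3 lower, 1 to 3 fatty acid genes higher and 0 to 1 regulators lower; Scd1 fails the filter when a cKO-labelled naive library is left out. In effector cells it gave 0 to 1 sterol genes higher and 1 to 3 lower, and 0 to 2 regulators higher. In memory cells it gave 3 to 5 sterol genes lower, 1 to 3 fatty acid genes higher and 0 to 1 lower, and 0 to 1 regulators higher and 1 to 2 lower. Interactions numbered 4 to 7, 7 to 10 and 3 to 6. Other losses were Srebf2 (0.065) and Stard4 (0.125) in memory cells under library totals, Idi1 in effector (0.0567) and Stard4 in memory cells (0.0715) in DESeq2. The cause of these changes was not tested, and counting error limits Scd1 in naive cells.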
